A study of Mus musculus with 4 samples.

Results

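Genomic imprinting leaves a gene active on only the maternal or only the paternal chromosome, and many imprinted genes set how fast a fetus grows. As a rule of thumb, paternally expressed genes such as *Igf2* favour growth and maternally expressed genes restrain it, and in muscle several of them act in satellite cells and during regeneration. Imprinted genes lie in clusters that share a control region, so neighbours on a chromosome are often expressed in the same cells. The counts analysed here do not separate the parental alleles, so they give the level of each gene and not its imprinting.

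The group described is 10 imprinted genes of fetal growth, of 32285 genes in the feature table, and all 10 were found there. They were chosen by name, with earlier results of these data known. Their levels were measured in leg muscle of fetal mice at E18.5 with droplet single-cell RNA-seq, which counts transcripts by their unique molecular identifiers (UMIs). There were 2 wild-type (WT) libraries and 2 libraries from littermates that lacked *SYISL* (KO), a lncRNA whose name refers to *Synpo2*. The KO was present in the whole fetus, so a difference in one cell type need not arise in that cell type. By the study's methods muscle was isolated separately from every fetus. Whether each library held 1 fetus was not stated outright, and p-values measure the spread between libraries only.

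The deposited UMIs numbered 109653824 to 126257094 per library, and 36969 of 41741 cells passed the filters on genes, UMIs and mitochondrial share. Kept cells held a median of 10371 and 11427 UMIs in WT and 9118 and 9727 in KO. No feature was named *SYISL*, and *Synpo2* stood at 9.03 to 10.9 CPM (a gene's UMIs as a share of all UMIs of the summed cells, where 1% is 10000 CPM) in all libraries, so the target gave no check of the labels. KO replicate 2 stood apart in sex-linked transcripts, with *Xist* at 1203 CPM against at most 0.0533 CPM in the others, and with *Ddx3y* at 0.927 CPM against 99.5 to 108 CPM. Sex-linked transcripts were thus not balanced between the genotypes, and the labels used here gave no sex. The part of sex in the differences between KO and WT was not tested. The libraries shared 15 to 27 cell barcodes per pair among kept cells.

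Of the non-coding members, *H19* (ENSMUSG00000000031) lies on chromosome 7 from 142575529 to 142578143 on the minus strand (GRCm38, as are all positions) and is the maternally expressed neighbour of *Igf2*. *Meg3* (109541001 to 109571726), *Rian* (109603940 to 109661716) and *Mirg* (109729764 to 109749460) follow each other on the plus strand of chromosome 12 and are maternally expressed. *Dlk1* (109452823 to 109463336), a membrane protein, precedes them on the same strand and is paternally expressed. *Peg3*, a zinc finger protein, lies on chromosome 7 from 6703892 to 6730431. *Plagl1*, a zinc finger transcription factor, lies on chromosome 10 from 13060504 to 13131694. *Grb10*, an adaptor that dampens insulin and growth factor receptors, lies on chromosome 11 from 11930508 to 12038683. *Mest*, an enzyme-like protein of the hydrolase fold, lies on chromosome 6 from 30723547 to 30748465, and *Ndn*, which encodes necdin, on chromosome 7 from 62346569 to 62350262. *Mest* overlaps *Copg2* and *Gm44296*, and *Ndn* overlaps *Gm32061*, each on the opposite strand.

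Of the 10 genes, 5 also contain microRNA hairpins on their own strand in the RefSeq table (GRCm38.p6), with 1 in *H19*, 1 in *Meg3*, 3 in *Rian*, 14 in *Mirg* and 1 in *Mest*. The mature forms below are shown because the UMIs of *H19*, *Mirg* and *Mest* count the host transcripts only. The mature microRNAs were not measured. The seed, bases 2 to 8, is in capitals. The first pair comes from *H19*, the second from *Mest*, and the last from *Mirg*, whose members share 1 seed.

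mmu-miR-675-5p: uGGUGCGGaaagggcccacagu
mmu-miR-675-3p: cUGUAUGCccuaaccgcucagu
mmu-miR-335-5p: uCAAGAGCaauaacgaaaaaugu
mmu-miR-335-3p: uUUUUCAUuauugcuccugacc
mmu-miR-453: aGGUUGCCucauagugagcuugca
mmu-miR-496a-5p: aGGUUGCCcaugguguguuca

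To place the genes among the cells of the muscle, cells were clustered without the 10 genes and the clusters were named from markers. Fibro-adipogenic progenitors (FAP-like cells, 18673) were the largest class, followed by myogenic-like (6719), chondrocyte-like (3393), glial-like (1845), smooth muscle or pericyte-like (1737), endothelial-like (1329), tenocyte-like (1245) and macrophage-like cells (1306) and by 280 mast-like cells. The chondrocyte-like cluster also carried tenocyte markers, and the macrophage-like cluster also held neutrophil markers. A cluster of 442 cells that carried both myogenic and FAP markers stayed unnamed. It was led by *Myog* and *Tnnt2*, held the erythroid markers *Hba-a1* and *Hbb-bs*, and had 52 and 39 cells in WT and 119 and 232 in KO. Chondrocyte-like cells numbered 655 and 1005 in WT and 323 and 1410 in KO. In a finer clustering (resolution 1) a cluster of 1833 cells led by *Kera*, *Itgbl1* and *Fmod* was named tenocyte-like. The order of levels by class is described without a test and was not examined in that clustering.

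All members but *Mest* had their highest mean level in FAP-like cells. The libraries overlapped with those of the next class for *H19*, *Rian* and *Mirg* (chondrocyte-like cells) and for *Grb10* (myogenic-like cells). In FAP-like cells the 10 genes together took 1.45 ± 0.0550% of all UMIs (SD over the 4 libraries), against 0.682 ± 0.0246% in myogenic-like and 0.101 ± 0.0123% in macrophage-like cells. The values of the 4 libraries did not overlap between these 3 classes. The classes of mesenchymal origin differed among themselves in which genes they held.

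**Figure D1:**
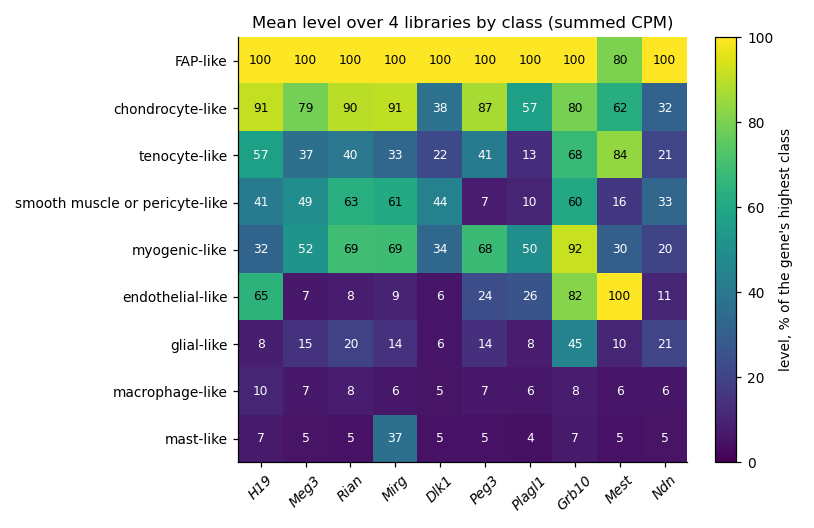
Mean level of each gene (columns) in each class (rows) over the 4 libraries, in percent of that gene's highest class, printed in the cells. *Mest* and *H19* are high in endothelial-like cells, where *Meg3*, *Rian*, *Mirg* and *Dlk1* are low. *Peg3* and *Plagl1* are low in smooth muscle or pericyte-like cells, where *Dlk1* and *Meg3* are not. *Plagl1* is also low in tenocyte-like cells.

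*H19* stood at 1456 ± 84.6 CPM in FAP-like and 1320 ± 186 CPM in chondrocyte-like cells, 2 classes whose libraries overlapped. Endothelial-like cells followed at 942 ± 62.4 CPM, overlapping with tenocyte-like cells at 827 ± 27.5 CPM. Smooth muscle or pericyte-like cells at 594 ± 31.2 CPM and myogenic-like cells at 468 ± 23.6 CPM came next and did not overlap. The lowest levels were those of macrophage-like (151 ± 19.8 CPM), glial-like (120 ± 8.96 CPM) and mast-like cells (103 ± 38.7 CPM).

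The 3 non-coding RNAs of chromosome 12 kept another order. *Meg3* was at 3098 ± 93.9 CPM in FAP-like cells, 2446 ± 228 in chondrocyte-like, 1603 ± 87.9 in myogenic-like and 1524 ± 58.3 in smooth muscle or pericyte-like cells, and the last pair overlapped. It fell to 218 ± 27.0 CPM in endothelial-like cells. *Rian* ranged from 592 ± 19.8 CPM in FAP-like to 44.98 ± 6.92 CPM in endothelial-like and 29.7 ± 11.3 CPM in mast-like cells. *Mirg*, the least detected member, was at 41.8 ± 2.44 CPM in FAP-like and 28.9 ± 2.21 CPM in myogenic-like cells. Its 15.4 ± 6.54 CPM in mast-like cells rested on 49 UMIs. That was 37.3% of its FAP-like level (23.6 to 59.1% by library), while the other members averaged 4.47 to 7.50% there.

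*Dlk1* was at 3740 ± 212 CPM in FAP-like cells, with no other class overlapping, and at 1650 ± 57.2 CPM in smooth muscle or pericyte-like cells. Myogenic-like cells held 1266 ± 85.0 CPM and overlapped with chondrocyte-like cells at 1411 ± 125 CPM. *Ndn* was also set apart in FAP-like cells, at 278 ± 4.96 CPM against 91.8 ± 5.85 CPM in smooth muscle or pericyte-like cells, the next class.

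*Peg3* and *Plagl1* were both low in smooth muscle or pericyte-like cells but differed in tenocyte-like cells. *Peg3* was at 1431 ± 37.0 CPM in FAP-like, 1243 ± 28.3 in chondrocyte-like and 977 ± 33.3 in myogenic-like cells, but at 107 ± 34.0 CPM in smooth muscle or pericyte-like cells. *Plagl1* was at 1323 ± 81.1, 750 ± 57.7 and 660 ± 29.97 CPM in the same 3 classes and at 135 ± 38.1 CPM in smooth muscle or pericyte-like cells. Tenocyte-like cells held *Plagl1* at 171 ± 21.8 CPM, overlapping with smooth muscle or pericyte-like cells. They held *Peg3* at 585 ± 14.7 CPM, with no such overlap. After each cell was thinned to 2000 UMIs, *Peg3* had a UMI in 11.9 ± 1.9% of smooth muscle or pericyte-like cells and *Dlk1* in 84.2 ± 2.1%. Without thinning these shares were 32.9% and 96.6%.

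*Mest* was highest in endothelial-like cells, at 2149 ± 42.1 CPM, above tenocyte-like (1798 ± 67.8 CPM) and FAP-like cells (1728 ± 77.8 CPM), which overlapped each other. *Grb10* had the smallest ratio between its highest and lowest class (13.5, against up to 22.3 for *Plagl1*), at 771 ± 46.1 CPM in FAP-like, 707 ± 20.0 in myogenic-like, 631 ± 41.8 in endothelial-like and 344 ± 23.4 CPM in glial-like cells.

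In droplet data free RNA adds UMIs to cells that do not express a gene, and 6 genes of FAP-like cells (*Col1a1*, *Col1a2*, *Col3a1*, *Dcn*, *Lum* and *Pdgfra*) served as a yardstick. Their median level in macrophage-like cells was 4.23 to 6.22% of that in FAP-like cells, by library. Single yardstick genes averaged 3.43 to 8.39% there. The highest of them was *Col1a1*, followed by *Col1a2* at 7.31%. All members but *H19* (10.4%) lay within that range, from 5.38% for *Dlk1* to 8.17% for *Grb10*. The part of free RNA in the macrophage-like values was not tested. In endothelial-like cells the yardstick was at 3.76 to 6.16%, and *Dlk1* (5.66 ± 0.75%), *Meg3* (7.04 ± 1.0%) and *Rian* (7.62 ± 1.4%) were near it. *H19* at 64.8 ± 5.0%, *Grb10* at 82.2 ± 9.5% and *Mest* at 125 ± 7.8% were far above it. After thinning, 71.5 ± 1.9% of endothelial-like cells had an *H19* UMI, 15.2 ± 4.8% a *Meg3* UMI and 20.5 ± 5.2% a *Col1a1* UMI. Without thinning these shares were 93.9%, 30.9% and 52.3%, at a median of 8640 to 9750 UMIs per cell.

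Across the 9 classes, the gene most like *H19*, *Meg3*, *Rian*, *Dlk1* and *Peg3* was an imprinted gene of the same cluster, and that of the other 5 members was not. Likeness was Pearson's r of the mean log2(CPM + 1) among 9658 genes of at least 10 CPM, and all classes came from the same 4 libraries. The closest gene to *H19* was *Igf2* (r = 0.993). *Meg3* and *Rian* were each other's closest gene (0.996), followed for both by *B830012L14Rik* and the imprinted *Rtl1* (0.989 for *Meg3*, 0.990 for *Rian*). The closest to *Peg3* was *Usp29* (0.965), an imprinted neighbour, then *Cdon* and *Sema3a*. *Dlk1* was closest to *Meg3* (0.956). *Plagl1* was closest to *Ntn1* (0.953), *Peg3* (0.930) and *Usp29* (0.925). *Grb10* was closest to *Ctif* (0.977), *Mest* to *Nt5c3b* (0.969), *Ndn* to *Ttc8* (0.960) and *Mirg* to *Nme2* (0.914). The value for *Mirg* included its level in mast-like cells, which rested on few UMIs. Between members the values ran down to 0.357, for *Mirg* with *Mest*.

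Among single cells the members varied together only weakly. In each cell thinned to 5000 UMIs, the median Spearman's rho over pairs of members was 0.0994 to 0.122 in the 4 libraries of FAP-like cells and 0.0359 to 0.0670 in myogenic-like cells. The highest pair in FAP-like cells was *Meg3* with *Rian*, at a mean of 0.316 (0.2999 to 0.332 by library), then *Peg3* with *Plagl1* at 0.303. In myogenic-like cells it was *Dlk1* with *Plagl1*, at 0.282 (0.261 to 0.312). *Dlk1* and *Rian*, neighbours in the same cluster of genes, had a mean of -0.016 in FAP-like and -0.029 in myogenic-like cells. These values describe cells of one library with one depth and carry no test.

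FAP-like cells fell into 4 clusters with different levels of the members. The cluster led by *Smoc2* had the highest *Dlk1* (4404 ± 162 CPM), *H19* (1622 ± 101), *Mest* (1931 ± 64.4) and *Ndn* (324 ± 12.9). The cluster led by *Ly6a* and *Pi16*, genes of adventitial-type fibroblasts, had the highest *Meg3* (3659 ± 115 CPM), *Rian* (704 ± 30.4) and *Mirg* (50.7 ± 3.7) and the lowest *Mest* (1380 ± 53.7). The cluster led by *Ccl11* had the lowest *Plagl1* (854 ± 30.01 CPM), *Ndn* (191 ± 6.3) and *H19* (943 ± 31.6). The cycling cluster lay between these for most members.

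Next, the muscle lineage was compared with FAP-like cells within each library. Of the 10 members, 9 were lower in myogenic-like cells and none higher (edgeR quasi-likelihood test, Benjamini-Hochberg adjustment over all genes, threshold 0.05). At this contrast 80.2% of the 18103 genes tested were called, so a call by itself does not set the members apart. *Ndn* differed most, with a log2 fold change of -2.15 (SE 0.03, adjusted p = 1.14e-12). *H19* followed at -1.49, *Dlk1* at -1.41, *Mest* at -1.26, *Plagl1* at -0.85 and *Meg3* at -0.80. *Peg3*, *Mirg* and *Rian* differed least of those called, at -0.40, -0.39 and -0.38. *Grb10* was at 0.03 (SE 0.03, adjusted p = 0.404). The median log2 fold change was -0.83 over the members and -0.08 over all genes. Of 42 other imprinted genes, 40 were tested, with 16 higher and 15 lower. *Igf2* was lower (-1.26), as were *Dio3* (-3.94), *Magel2* (-3.05) and *Sfmbt2* (-2.77), while *Nnat* (3.37), *Ddc* (2.50), *Zdbf2* (2.25) and *Cdkn1c* (0.95), an inhibitor of the cell cycle, were higher.

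Within the myogenic-like class, 3315 cells were progenitor-like, 1872 cycling, 1455 myoblast-like and 77 myotube-like. Between progenitor-like and myoblast-like cells all 10 members were called, 7 lower and 3 higher in myoblast-like cells, where 65.7% of the 12642 genes tested were called. The groups of libraries were far apart for *Plagl1*, which stood at 878, 870, 903 and 820 CPM in progenitor-like cells of WT replicates 1 and 2 and KO replicates 1 and 2, and at 344, 345, 311 and 338 CPM in myoblast-like cells. Its log2 fold change was -1.24 (SE 0.04, adjusted p = 3.54e-18). *H19* fell from 551, 599, 549 and 535 CPM to 244, 292, 231 and 252 CPM (-0.999), and *Dlk1* from 1772, 1483, 1639 and 1657 CPM to 770, 713, 745 and 764 CPM (-0.99). *Mest* (-0.68), *Peg3* (-0.50) and *Ndn* (-0.39) fell less.

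The *Dlk1* to *Mirg* cluster did not move as one block. Where *Dlk1* fell, *Meg3* changed little (-0.13, SE 0.03, adjusted p = 6.99e-04), and *Rian* (0.20, SE 0.04) and *Mirg* (0.46, SE 0.11) rose. The call for *Meg3* was lost with a looser cell filter and when stages were set by *Myog* and *Pax7* UMIs (log2 fold changes of -0.04 and -0.07). *Grb10* rose as well, from 749, 713, 693 and 667 CPM to 819, 845, 795 and 797 CPM (0.34, SE 0.03, adjusted p = 3.27e-09). Of 36 other imprinted genes tested, 15 rose and 17 fell. Those that rose most were *Ddc* (3.54), *Magel2* (1.18) and *Snrpn* (1.01), followed by *Cdkn1c* (0.97), and those that fell most were *Sfmbt2* (-2.49), *Asb4* (-1.85) and *Nnat* (-1.83), while *Igf2* fell by 0.51 on the log2 scale.

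The small myotube-like cluster, of 11 to 28 cells per library, split the members further. *H19* was at 2030, 3409, 2089 and 1498 CPM there, 8.85 times its mean in myoblast-like cells and above every library of them. *Meg3* (3643 ± 1057 CPM), *Rian* (1429 ± 595) and *Mirg* (117 ± 51.0) were 2.62, 3.43 and 3.44 times their myoblast-like means. *Peg3* (379 ± 229 CPM), *Plagl1* (121 ± 77.4), *Grb10* (554 ± 95.0) and *Mest* (97.1 ± 47.2) were lower than in myoblast-like cells in every library. *Dlk1* and *Ndn* overlapped between the stages. So 8 of 10 members did not overlap between the stages, and the same held for 48.2% of the 7630 genes of at least 10 CPM, with no test made. The levels of *Mirg* and *Mest* rested on 82 UMIs each.

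The share of myotube-like cells with a UMI after thinning was 82.1 ± 1.9% for *H19* and 86.9 ± 4.6% for *Rian*, against 36.6 ± 2.9% and 51.3 ± 1.4% of myoblast-like cells. Unthinned shares were 89.6% and 96.2% against 83.3% and 93.4%. For *Meg3* the thinned share was 55.3 ± 23% against 87.3 ± 2.1%, which goes against its higher CPM, so its UMIs were uneven among these cells. Median depth of the myotube-like cells was 3985 and 4767 UMIs in WT and 8896 and 9656 in KO, and their median mitochondrial share ran from 0.0226% in WT replicate 2 to 3.24% in KO replicate 2. Of the FAP genes, *Pdgfra* had no UMI in them, *Dcn* was at 22.2 ± 3.5 CPM against 11.6 ± 2.9 in myoblast-like cells, and *Col1a1* reached 586 CPM in WT replicate 1 and 109 to 158 CPM in the others. Their part in the higher members was not tested, nor was whether the myotube-like barcodes held whole cells.

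**Figure D2:**
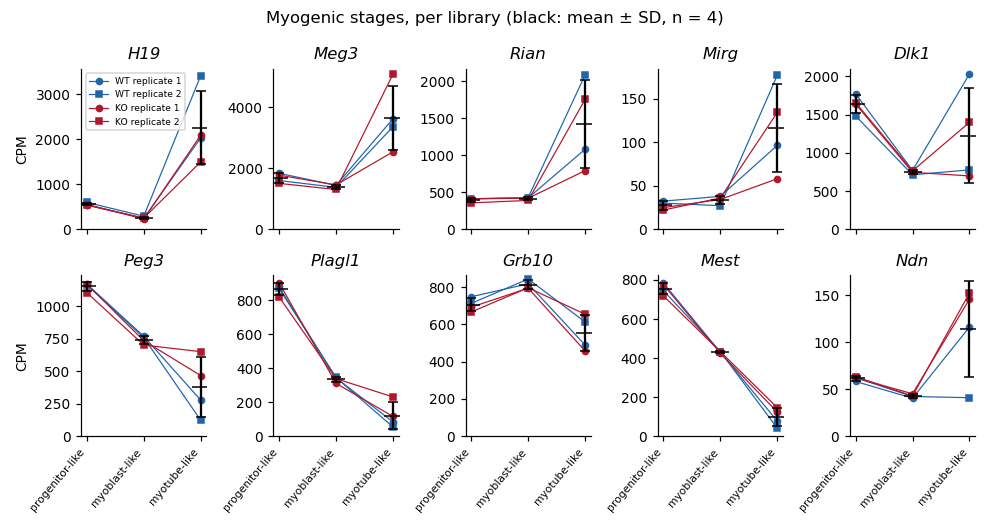
CPM of each gene (panels, linear axes from 0) at the progenitor, myoblast and myotube stages, with 1 line per library (blue WT, red KO) and the mean ± SD of the 4 libraries in black. *Plagl1*, *Mest* and *Peg3* fall along the stages, while *H19*, *Meg3*, *Rian* and *Mirg* are highest in the 77 myotube-like cells, with a wide spread.

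The start regions of *Mest* and *Plagl1*, which both fell in myoblast-like cells, are shown as examples of members that moved the same way. In RefSeq 9 of the 10 genes had such a sequence (250 bases before to 50 after a start, 13 in all). The letters CAGCTG, an E-box form that reads the same on both strands and is bound by myogenic regulatory factors, occurred in 1 of the 13 and in 16.3% of the 32851 sequences of that table. The match is in capitals in the first *Mest* sequence (chr6:30733256-30733555, plus strand). The other *Mest* sequences, which begin at chr6:30737800 and chr6:30737803, are not shown and held no match. The *Plagl1* sequence (chr10:13090582-13090881, plus strand) held none.

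Mest: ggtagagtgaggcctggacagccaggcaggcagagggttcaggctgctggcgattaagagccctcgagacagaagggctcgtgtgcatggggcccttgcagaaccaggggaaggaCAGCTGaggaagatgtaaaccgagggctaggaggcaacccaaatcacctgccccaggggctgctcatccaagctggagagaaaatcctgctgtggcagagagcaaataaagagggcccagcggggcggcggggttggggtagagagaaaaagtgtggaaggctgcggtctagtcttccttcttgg
Plagl1: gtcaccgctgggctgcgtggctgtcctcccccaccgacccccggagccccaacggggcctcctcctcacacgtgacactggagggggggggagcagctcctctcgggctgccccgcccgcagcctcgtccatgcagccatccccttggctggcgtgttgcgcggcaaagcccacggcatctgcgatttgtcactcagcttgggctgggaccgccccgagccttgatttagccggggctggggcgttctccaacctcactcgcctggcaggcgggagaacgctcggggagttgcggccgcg

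To ask how the members relate to proliferation, cells with at least 3 of 20 cell cycle genes detected were compared with cells with 0 or 1 of them, within each library. In FAP-like cells (6340 cycling, 9263 not, 3070 near the limit and left out) 6 members were lower in cycling cells and none higher, where 48.1% of the 17009 genes tested were called. Lower here means a lower share of UMIs. Cycling FAP-like cells held a median of 13226 and 14594 UMIs in WT and 11479 and 12810.5 in KO. Non-cycling ones held 9321 and 10526 in WT and 8255 and 8904 in KO. The members' UMIs per cell were not compared. *Meg3* was at 3448, 3575, 3480 and 3287 CPM in non-cycling and at 2707, 2714, 2734 and 2592 CPM in cycling cells (log2 fold change -0.39, SE 0.02, adjusted p = 1.14e-11). *H19* (-0.36) and *Dlk1* (-0.29) differed about as much, and for these 3 genes every cycling library lay below every non-cycling one. *Rian* (-0.16), *Plagl1* (-0.15) and *Grb10* (-0.10) differed little. *Peg3* and *Mest* (both -0.02), *Ndn* (-0.03) and *Mirg* (-0.09) did not pass the test. Of 40 other imprinted genes, 8 were higher and 18 lower, among them *Nnat* (0.73), *Peg12* (0.44) and *Ddc* (0.43) higher and *Peg13* (-0.73), *Sfmbt2* (-0.53), *Igf2* (-0.38) and *Cdkn1c* (-0.11) lower.

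In myogenic-like cells without a *Myog* UMI (2542 cycling, 1431 not) 6 members were again lower and none higher, where 37.1% of the 12486 genes tested were called. *Dlk1* differed most, at 2039, 1623, 1808 and 1815 CPM in non-cycling and 1401, 1266, 1345 and 1381 CPM in cycling cells (-0.44, SE 0.03, adjusted p = 1.32e-12). *Meg3* (-0.27), *H19* (-0.26), *Plagl1* (-0.22), *Grb10* (-0.15) and *Peg3* (-0.14) were also lower. *Rian*, *Mirg*, *Mest* and *Ndn* did not pass, at -0.06, -0.10, -0.06 and 0.10. Of 36 other imprinted genes, 3 were higher (*Nnat* at 0.65, *Commd1* at 0.19 and *Peg10* at 0.17) and 13 lower, the largest being *Phlda2* (-1.38), *Peg13* (-1.21) and *Zim1* (-0.46). *Igf2* was at -0.25 and *Cdkn1c*, which did not pass, at 0.02. Whether the effect of the cycle differed between FAP-like and myogenic-like cells was not tested.

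**Figure D3:**
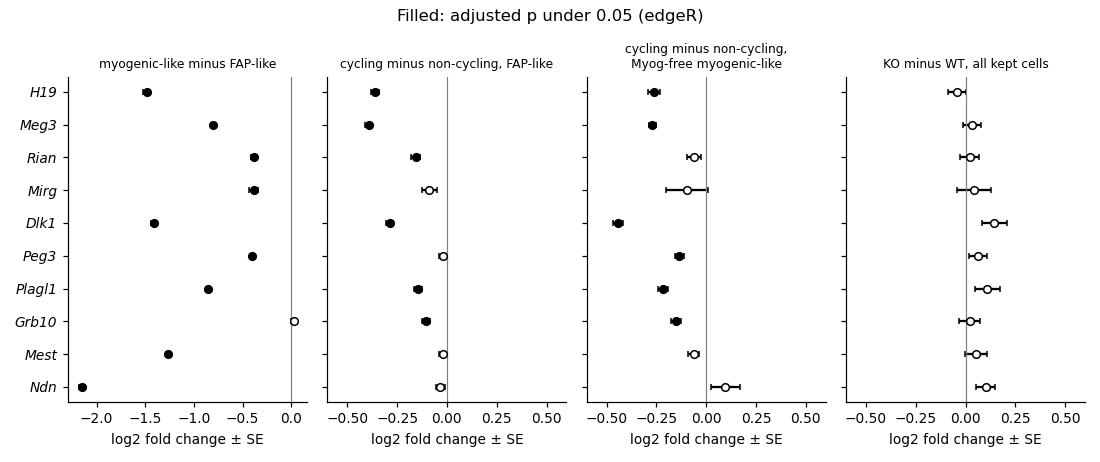
Log2 fold change ± SE of the 10 genes in 4 comparisons (edgeR, 4 libraries), with filled points for an adjusted p under 0.05. The first panel has a wider axis. The differences between lineages reach -2.15, those with the cell cycle stay within 0.44, and no member is called between genotypes over all kept cells.

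The loss of *SYISL* was then examined. Over all kept cells no member was called between KO and WT, with log2 fold changes from -0.04 (*H19*) to 0.14 (*Dlk1*, SE 0.06). Of all 20419 genes tested 0% were called and 961 had an unadjusted p under the threshold, but no member did. DESeq2 called 51 genes and no member. *Dlk1* stood at 2431 and 2278 CPM in WT and 2628 and 2416 CPM in KO, and *Meg3* at 2253 and 2312 CPM in WT and 2285 and 2243 CPM in KO. Both genes overlapped between the genotypes.

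In FAP-like cells the members ranged from -0.07 (*H19*) to 0.10 (*Dlk1*), and in myogenic-like cells from -0.09 (*Mirg*, SE 0.10) to 0.06 (*Dlk1*). None was called in either class, and no member passed the threshold before adjustment. Of all genes 0% were called in each by edgeR, with 573 and 514 at an unadjusted p under the threshold, while DESeq2 called 7 genes in FAP-like and 0 in myogenic-like cells, with no member among them. *H19* stood at 1562 and 1462 CPM in WT and at 1446 and 1355 CPM in KO FAP-like cells. In myogenic-like cells it was at 468 and 501 CPM in WT and 446 and 458 CPM in KO. The log2 fold changes were -0.07 and -0.06 (SE 0.07 in each). The KO effect in myogenic-like cells less that in FAP-like cells lay between -0.11 and 0.01 for all members, with no gene called by edgeR (0%, 553 at an unadjusted p under the threshold) and 2 genes, neither a member, by DESeq2. At the progenitor, cycling, myoblast and myotube stages no member was called, and of all genes 0% were called in each by edgeR and none by DESeq2. At an unadjusted p under the threshold there were 463, 471, 476 and 132 genes, with 1, 0, 0 and 2 members among them. With WT replicate 1 left out, *Peg3* was called higher at the myotube stage (log2 fold change 2.14), on 11 WT cells.

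**Figure D4:**
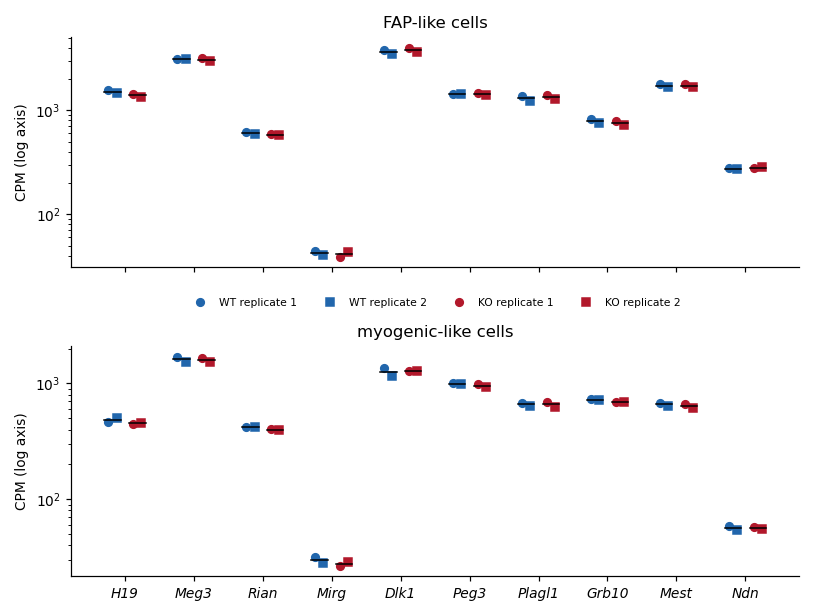
CPM on a log axis of each gene in FAP-like (top) and myogenic-like cells (bottom), with 1 point per library (blue WT, red KO, circle replicate 1, square replicate 2) and a black line at each genotype's mean. The genotypes lie close together for all 10 genes, and no member was called in either class.

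No member was called by edgeR or DESeq2 in chondrocyte-like (0% of all genes called by edgeR, 233 at an unadjusted p under the threshold, 0 by DESeq2), glial-like (0%, 453, and 1 by DESeq2), tenocyte-like (0.0173%), endothelial-like (0.0171%) or macrophage-like cells (0.315%). In glial-like cells *Dlk1* was at 185 and 153 CPM in WT and 251 and 238 CPM in KO (log2 fold change 0.54, SE 0.11, adjusted p = 0.996), and it was called when every gene with a UMI was tested (0.54, adjusted p = 2.40e-04). With doublets removed *Dlk1* was called higher in endothelial-like cells (1.09, adjusted p = 0.0234), as were *Col3a1* (1.21) and *Dcn* (1.69). In smooth muscle or pericyte-like cells (0.119%) *Peg3* and *Plagl1* came closest. *Peg3* was at 94.6 and 67.4 CPM in WT and at 148 and 116 CPM in KO (log2 fold change 0.72, SE 0.14, adjusted p = 0.0922). *Plagl1* was at 0.66 (SE 0.13, adjusted p = 0.0883). With doublets removed the log2 fold changes were 0.35 (adjusted p = 0.992) for *Peg3* and 0.43 (adjusted p = 0.660) for *Plagl1*. The FAP genes *Lum* (1.85) and *Dcn* (1.25) were called higher in the same cells. With doublets removed both stayed called (1.38 and 0.87, adjusted p = 0.00982 for each). *Col1a1* (0.23), *Col1a2* (0.10), *Col3a1* (0.12) and *Pdgfra* (1.39) were not called then. The median of the yardstick was 3.84 to 5.85% of FAP-like cells in WT and 8.43 to 9.90% in KO. The part of FAP transcripts in the difference was not tested.

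In mast-like cells 2 members were called higher in KO, where 0.347% of 6923 genes were called. *Meg3* UMIs numbered 39 and 49 in WT and 230 and 240 in KO, or 60.5 and 67.9 CPM against 253 and 276 CPM (log2 fold change 2.04, SE 0.17, adjusted p = 0.00376). *Peg3* was at 37.2 and 31.9 CPM in WT and 92.5 and 110 CPM in KO (1.55, SE 0.23, adjusted p = 0.0260). These fits rest on 56 to 84 cells per library. *Dlk1* was at 135 and 79.0 CPM in WT and 276 and 254 CPM in KO (1.31, SE 0.24, adjusted p = 0.0704). It was called when every gene was tested (1.31, adjusted p = 0.00137), by DESeq2 (1.30, adjusted p = 0.0122) and with any 1 library left out (0.93 to 1.78). The log2 fold changes of the 10 members ran from 0.26 to 2.04 with a median of 1.04, against -0.01 over all genes, and 8 members had an unadjusted p under the threshold. *Mest* (1.05, adjusted p = 0.235) was called without WT replicate 2 (1.66) or KO replicate 1 (1.14), *H19* (0.59) without WT replicate 2 (1.07) and *Plagl1* (1.02) without WT replicate 1 (1.35). The log2 fold change of *Plagl1* changed sign under another alternative. Of the 5 FAP yardstick genes tested in mast-like cells, *Col1a1* (1.38), *Col1a2* (1.54), *Col3a1* (1.91) and *Dcn* (2.30) were called higher too, and *Lum* was at 1.85 (adjusted p = 0.292). The yardstick's median was 1.93 and 2.58% of the FAP-like level in WT and 6.82 and 6.94% in KO. *Meg3* ran from 1.93% of its own FAP-like level in WT to 9.32% in KO, with a mean of 5.36% over the 4 libraries. With cells called as doublets removed, *Meg3* stayed called (1.69, adjusted p = 0.0285) and *Peg3* did not (0.93, adjusted p = 0.437). *Dlk1*, not called then, was at 135 and 77.4 CPM in WT and 233 and 148 CPM in KO. The FAP genes were still higher but not called then. They were at 1.99 (*Dcn*), 1.59 (*Col3a1*), 1.19 (*Lum*), 0.94 (*Col1a1*) and 0.94 (*Col1a2*). With the looser cell filter neither *Meg3* nor *Peg3* was called (0.35 and 0.20). *Meg3* was also called by DESeq2 (2.03, adjusted p = 1.40e-07). *Peg3* was not called by DESeq2 (1.55) or when the members were among the variable genes (1.44). The part of FAP transcripts in the mast-like values was not tested.

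**Figure D5:**
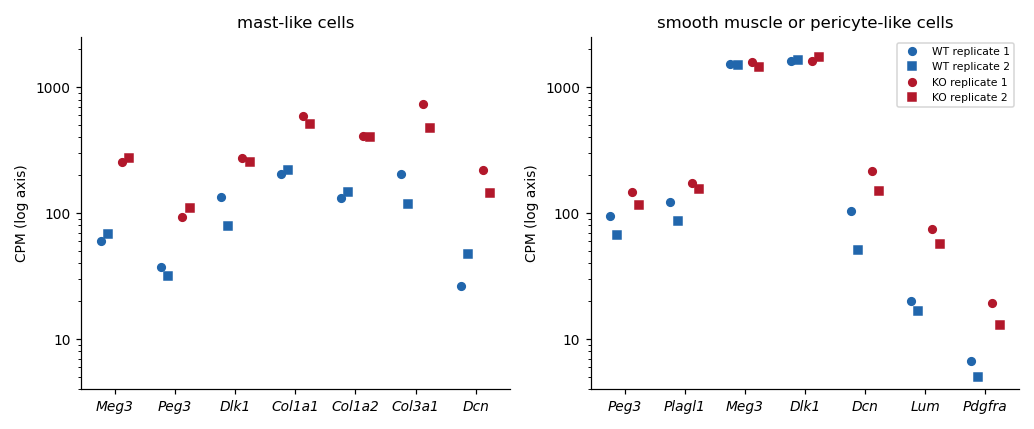
CPM on a log axis of members and of FAP genes in mast-like (left) and smooth muscle or pericyte-like cells (right), 1 point per library (blue WT, red KO). In mast-like cells *Meg3* lies at 253 and 276 CPM in KO against 60.5 and 67.9 CPM in WT, and the FAP genes *Col1a1*, *Col1a2*, *Col3a1* and *Dcn* are called higher as well. On the right *Peg3* lies at 148 and 116 CPM in KO against 94.6 and 67.4 CPM in WT, beside *Dcn* and *Lum*, which are called higher.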

How the data were processed

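Per the labels and the study's methods, libraries were made with 10X Genomics chemistry for transcript 3' ends. The authors ran Cell Ranger 7.2.0 on mm10, and the matrices they deposited hold unnormalised counts of UMIs. Whether intronic reads were counted was not given in the sources used here. The filter kept cells with 1000 to 6000 genes, a total of 1000 to 25000 UMIs and a mitochondrial share below 8%. Doublets were removed only as an alternative (Scrublet). Leiden clustering (scanpy 1.11.5, resolution 0.3, 3000 variable genes without the 10 members, 30 components) was followed by naming from marker lists, by a rule set after the data were seen. Sums of UMIs for each class in each library entered edgeR 4.0.16 (TMM, filterByExpr, quasi-likelihood), with the library as a block for comparisons within libraries. SEs come from the F statistic. The code was tested on simulated data. The named genes were the 10 members, *Igf2*, *Cdkn1c* and up to 3 called genes in each direction of the other imprinted genes. Members and lists were chosen with earlier results of these data known. Alternatives were RLE factors, DESeq2 1.42.0, no gene filter, other cell filters and clusterings, the replicate block and leaving out each library. Positions come from GENCODE.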

Additional observations from a re-analysis of the deposited data

How the results depend on the processing

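With 2 libraries per genotype, small differences cannot be called. The calls between lineages kept 9 members under every alternative tried, those between stages 9 or 10, and those with the cell cycle 6 to 9 in FAP-like and 6 or 7 in myogenic-like cells. Over all kept cells, FAP-like and myogenic-like cells and for the interaction, no member was called between genotypes under any alternative tried. In the other classes the 2 calls became 6 with every gene tested, 0 with the looser cell filter, 1 with the members among the variable genes, 1 at resolution 1, and 5 to 7 when 1 library was left out, and at the myogenic stages leaving out 1 library gave 0 to 1. The cause was not tested.

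With the replicate number as a replicate block, 7 calls were made in the other classes and 0 over all kept cells, in FAP-like and myogenic-like cells and at the stages. The labels share only a number, and the deviations of same-numbered libraries correlated at 0.341 over all kept cells.

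Signs changed only for members that were not called. In cycling FAP-like cells *Mest* was at 0.0096, *Peg3* at 0.020 and *Ndn* at 0.029 at resolution 1, *Mest* at 0.030 and *Ndn* at 0.012 with thinning, and *Peg3* at 0.0037 with 6 cycle genes against 0. In cycling myogenic-like cells *Mest* was at 0.0063 with thinning. *Grb10* between lineages was at -0.011 with every gene tested and at -0.022 without WT replicate 2 and up to 0.050 without KO replicate 1. Among 1719 further values of the members between genotypes, 165 changed sign, none of them called, and 16 were called under some alternative. *Peg3* and *Plagl1* in smooth muscle or pericyte-like cells were called with every gene tested, with the block and without any 1 library. With doublets removed they were at 0.35 and 0.43. Among the further values that changed sign, the largest absolute log2 fold change in the main fit was that of *Plagl1* in mast-like cells (1.02). With the block *Dlk1* was called in glial-like (0.54, adjusted p = 0.0208) and mast-like cells (1.33, adjusted p = 3.57e-04) and *Mest* in mast-like cells (1.09, adjusted p = 0.00997). The median rho without thinning was 0.147 in FAP-like and 0.0812 in myogenic-like cells.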
